A study of Mus musculus with 4 samples.

Results

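Genes of the cell division cycle were followed across primary astrocyte cultures from 4 brain regions of the mouse. The members were the 42 genes of a list that spans G1 and G1/S cyclins (5), S phase genes (14) and mitotic genes (23), and a gene entered when a probe set of the array was annotated to it alone, under its current or a former symbol. This held for 41 of the 42, with 79 probe sets between them, out of 12393 genes so named on the array. Ccnb1, which encodes cyclin B1, is not analysed here. A gene with several probe sets was represented by the brightest.

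All 4 cultures came from the outbred CD-1 stock at postnatal day 3, carry no genetic change or added agent in the labels, and were grown by 1 protocol; they differed in the region of origin. The regions were the hippocampus, the olfactory bulb (OB), the midbrain floor known as ventral mesencephalon (VM), and the subventricular zone (SVZ), a layer beside the lateral ventricle where neural stem cells divide. Tissue was pooled from littermates (the design text gives both 4 and 3 pups), the dissociated cells were plated with 10% serum, shaken at 200 rpm to enrich astroglia, and replated to form monolayers that stayed in serum until RNA was taken. Each region is 1 array of 1 pooled culture, so differences between regions stand without replicates or p-values.

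A cell divides by passing G1, S phase, G2 and mitosis. D-type cyclins with Cdk4 and Cdk6 open the way out of G1 by phosphorylating the retinoblastoma protein, which frees E2F factors to transcribe the genes of DNA replication. Later, the MuvB complex with B-Myb and Foxm1 turns on the genes of mitosis, and inhibitors such as p21 (Cdkn1a) hold the cyclin-dependent kinases back. Astrocytes divide in the early postnatal brain and in serum-fed culture until the monolayer is dense.

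The upstream sequences of 7 members are shown because the S phase and mitotic genes differed between cultures in separate ways. The 7 were picked by hand and are not those with the largest differences. Cenpa, Bub1 and Mcm3 are not shown, though their lowest and highest regions lay 3.15-fold, 3.0-fold and 2.85-fold apart, further than in some genes shown. Each run is the 250 bases before a RefSeq transcript start, from GRCm38.p6, on the strand of the gene; those of Mki67 and Mcm5 belong to a transcript that does not begin at the outer end of the gene. Capitals mark every match, on either strand, to TTTGAA (the cell cycle homology region bound by MuvB), to CCAAT (the NF-Y box), or to an E2F site written as TTTGGCGC, TTTCGCGC or TTTCCCGC. The mitotic genes shown are Cdk1 (chr10:69352913-69353162, minus strand), Cdc20 (chr4:118437344-118437593, minus strand), Ube2c (chr2:164769679-164769928, plus strand) and Mki67 (chr7:135716380-135716629, minus strand).
Cdk1: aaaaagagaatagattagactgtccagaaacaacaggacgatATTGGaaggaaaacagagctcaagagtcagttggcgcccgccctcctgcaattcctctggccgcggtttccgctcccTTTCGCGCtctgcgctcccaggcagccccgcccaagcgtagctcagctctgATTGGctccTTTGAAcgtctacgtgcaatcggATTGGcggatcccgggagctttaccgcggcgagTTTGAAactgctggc
Cdc20: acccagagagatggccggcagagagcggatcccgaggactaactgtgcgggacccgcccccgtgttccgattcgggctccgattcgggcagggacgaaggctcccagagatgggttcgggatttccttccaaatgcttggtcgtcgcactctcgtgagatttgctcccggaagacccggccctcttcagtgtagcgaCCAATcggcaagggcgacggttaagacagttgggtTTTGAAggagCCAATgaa
Ube2c: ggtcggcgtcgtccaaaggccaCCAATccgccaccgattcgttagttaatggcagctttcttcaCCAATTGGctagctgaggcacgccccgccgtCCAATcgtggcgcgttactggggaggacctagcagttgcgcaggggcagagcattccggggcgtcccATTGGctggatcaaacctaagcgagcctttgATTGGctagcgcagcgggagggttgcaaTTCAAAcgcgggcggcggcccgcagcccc
Mki67: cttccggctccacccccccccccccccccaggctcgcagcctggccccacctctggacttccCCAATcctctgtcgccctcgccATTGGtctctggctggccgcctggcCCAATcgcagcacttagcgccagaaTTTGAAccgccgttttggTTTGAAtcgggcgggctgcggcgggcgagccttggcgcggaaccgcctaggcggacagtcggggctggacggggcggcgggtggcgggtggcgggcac
The S phase genes shown are Mcm5 (chr8:75109259-75109508, plus strand), Mcm6 (chr1:128359706-128359955, minus strand) and Rrm2 (chr12:24708004-24708253, plus strand).
Mcm5: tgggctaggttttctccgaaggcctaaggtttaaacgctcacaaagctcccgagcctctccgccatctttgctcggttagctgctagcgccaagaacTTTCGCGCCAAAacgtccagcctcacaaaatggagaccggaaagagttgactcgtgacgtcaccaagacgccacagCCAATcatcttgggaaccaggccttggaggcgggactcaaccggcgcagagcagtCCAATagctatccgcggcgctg
Mcm6: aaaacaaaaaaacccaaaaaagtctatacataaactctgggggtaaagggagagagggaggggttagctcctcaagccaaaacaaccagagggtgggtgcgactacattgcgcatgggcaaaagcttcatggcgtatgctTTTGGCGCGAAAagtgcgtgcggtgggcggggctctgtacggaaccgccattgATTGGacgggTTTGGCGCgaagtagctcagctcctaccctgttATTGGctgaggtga
Rrm2: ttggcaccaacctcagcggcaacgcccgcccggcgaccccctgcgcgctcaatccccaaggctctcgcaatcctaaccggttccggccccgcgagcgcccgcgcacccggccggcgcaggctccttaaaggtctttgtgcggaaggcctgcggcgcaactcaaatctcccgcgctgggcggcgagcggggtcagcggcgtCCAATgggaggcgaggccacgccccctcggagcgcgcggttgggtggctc

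The 4 mitotic promoters each held TTTGAA, with 2 matches in Cdk1 and Mki67 and 1 in Cdc20 and Ube2c, beside 2 to 6 CCAAT boxes. Cdk1 also held 1 E2F match, which began 131 bases before the start. In Cdc20 the TTTGAA began 18 bases before the start and in Ube2c 29 bases before it, on the opposite strand. A palindromic CCAAT pair of Ube2c overlaps itself, and so do the E2F matches of Mcm5 and the distal ones of Mcm6. Mcm5 and Mcm6 held no TTTGAA but 2 and 3 E2F matches, of which the nearest in Mcm6 began 47 bases before the start. Each also held 2 CCAAT boxes. Rrm2 held a single CCAAT box and neither of the others. Among members not shown, Cenpa and Bub1 held no TTTGAA and Mcm3 no E2F match, so the genes shown do not stand for their lists.

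Over the members with an entry in the promoter table, TTTGAA was found in 7 of 18 listed mitotic genes (38.9%, Ccnb1 included) and 2 of 12 S phase genes (16.7%), where 18.3% of all 27025 genes with an entry had it. An E2F match was found in 4 of 12 S phase genes (33.3%) and 1 of 18 mitotic genes (5.56%), against 1.78% of all genes. CCAAT was found in 15 of the 18 and 9 of the 12, against 37.5%. These matches describe letters in a 250-base window and were not tested for use in these cells.

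**Figure D1:**
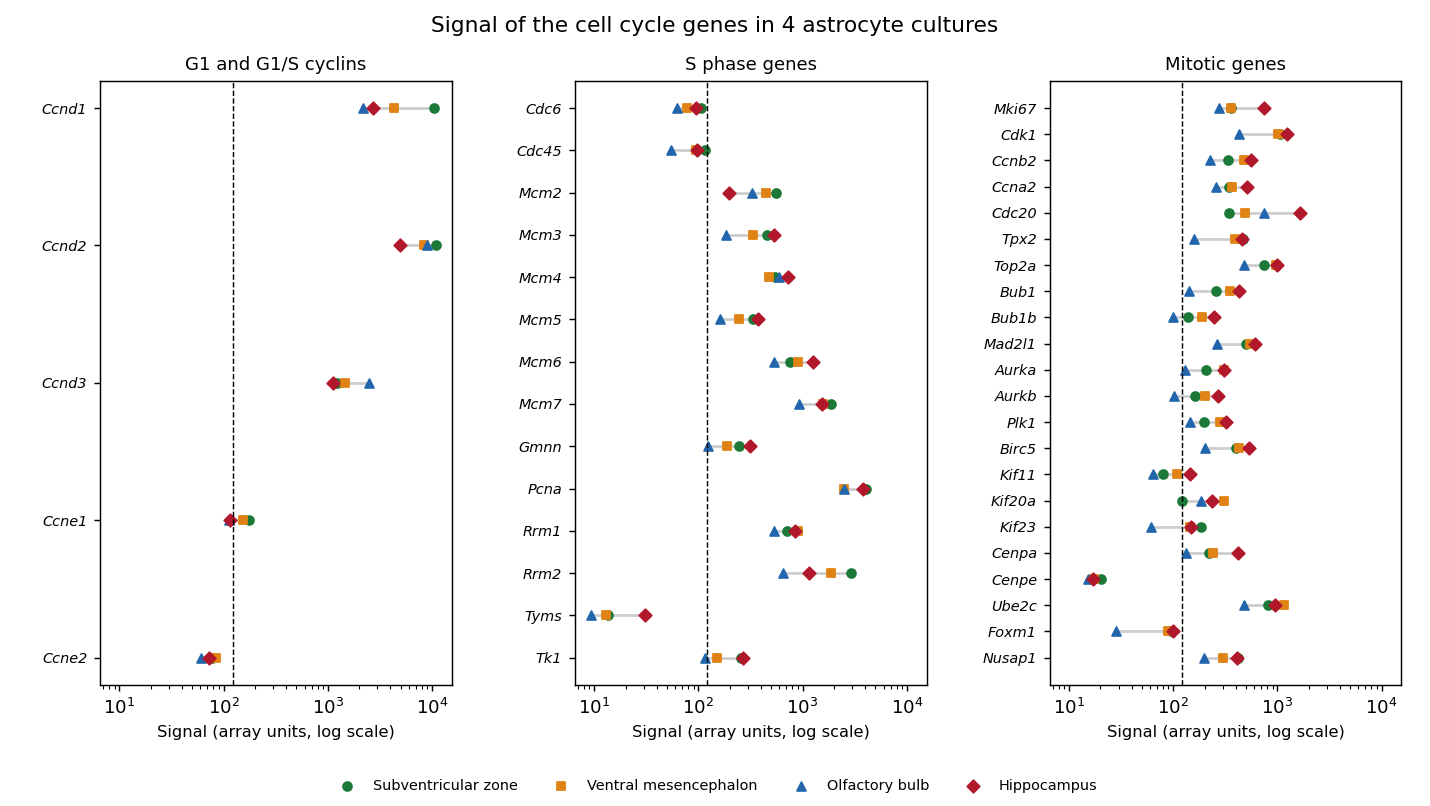
Deposited signal of 41 cell cycle genes in the 4 cultures, on a log axis in array units, 1 point per array and 1 row per gene; the dashed line is the signal floor of 122.1. The OB point is the lowest in most rows of the S phase and mitotic panels, while Ccnd3 is highest in the OB and Ccnd1 in the SVZ.

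The cultures differed in their cell cycle genes, and the OB culture stood lowest. Of the 41 members, 27 had their lowest signal there, where 14.3% of all genes did, against 2 in the SVZ (12.6% of all genes), 1 in the VM (14.4%) and 3 in the hippocampus (12.5%). The hippocampus had the highest signal of 20 members, where 18.1% of all genes had theirs, against 10 in the SVZ (15%), 4 in the VM (12.9%) and 1 in the OB (18.5%). Signals are linear array units; values under 122.1, the median of all signals, are close to background and were raised to it before log2 was taken, so members at or below this floor on both arrays count as equal. In all, 35 of the 41 members were above the floor on at least 1 array. Cdc6 (62.3 to 106.9), Cdc45 (54.6 to 116), Ccne2 (60.2 to 84.5), Tyms (9.3 to 30.7), Cenpe (15.1 to 20.5) and Foxm1 (at most 98.9 in its brightest probe set and 100.6 in any) were not. Shares of all genes include those under the floor on every array. Of the 7987 genes above it on at least 1 array, 22.2% were lowest in the OB and 28% highest in the hippocampus.

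The size of a difference was read against the scatter between probe sets of the same gene. Over 1977 genes with a pair of probe sets that exceeded the floor on all 4 arrays, the difference between 2 arrays had a median-based SD of 0.22 on the log2 scale, so that 2 SD came to 1.36-fold. The value describes how far probe sets of a gene disagree on the same RNA; how far repeat cultures would differ is unknown, and signals near the floor are not covered. The OB lay below every other region by more than this in 17 of the 41 members, against 4.09% of all genes. The hippocampus lay above every other region by more than this in 5, against 5.44% of all genes.

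Mitotic genes ran highest in the hippocampus and lowest in the OB. Their median log2 distance from the mean of the other 3 regions was 0.64 in the hippocampus, 0.26 in the VM, -0.09 in the SVZ and -0.88 in the OB, over the 22 named members; the same median over all genes was 0.00 in each region. Without the OB array the values were -0.03 in the VM, 0.28 in the hippocampus and -0.40 in the SVZ. Leaving out the hippocampus array gave 0.54 in the VM and 0.13 in the SVZ, and leaving out the VM array gave 0.00 in the SVZ. Set directly against the VM, the hippocampus was 0.24 higher by the median, a small lead. Of the 22 genes, 17 were higher in the hippocampus and 3 in the VM (34.2% and 27.8% of all genes). Beyond the probe set scatter were 4 and 0, where 15.4% and 11.5% of all genes were. In bulk samples fewer dividing cells and less RNA per dividing cell cannot be told apart.

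**Figure D2:**
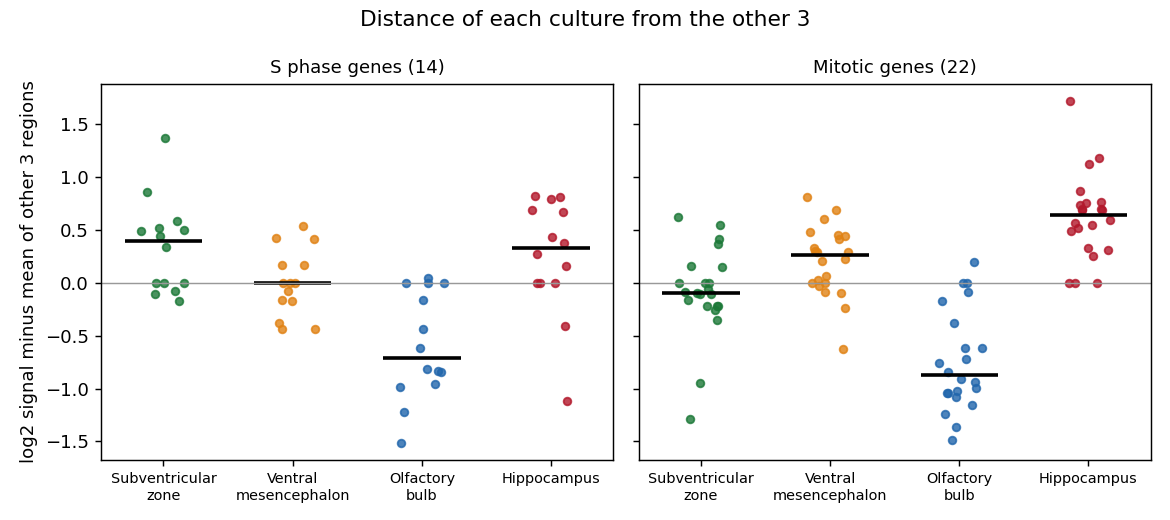
Log2 signal of each gene minus the mean of the other 3 regions, for 14 S phase and 22 mitotic genes, 1 point per gene and culture, with the median as a bar. The OB medians are -0.71 and -0.88; the SVZ median is 0.39 for S phase and -0.09 for mitotic genes.

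The direct comparison of hippocampus and OB had the largest median difference of the 6 pairs for mitotic genes; for S phase genes it was 0.71 on the log2 scale, close to the 0.73 of the SVZ over the OB. At least 2-fold higher in the hippocampus were 16 of 22 mitotic genes, where 5.6% of all genes were, and none was 2-fold higher in the OB, where 3.37% of all genes were. Among the 7987 genes that exceeded the floor on 1 array or more, 8.69% were 2-fold higher in the hippocampus. The median ratio of the mitotic genes was 2.21. With the floor raised to the 70th percentile of signals, 6 of all 41 members were 2-fold higher in the hippocampus, where the lower floor gave 21. The share of all genes at the raised floor was not computed. Of the 22, 20 were above the OB by any amount (32% of all genes) and 0 below it (29.8%); the other two, Cenpe and Foxm1, were under the floor on both arrays.

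Kinases that drive entry into mitosis were lowest in the OB and highest in the hippocampus. Cdk1, the catalytic partner of the mitotic cyclins, read 1055 in the SVZ, 1014 in the VM, 428 in the OB and 1249.8 in the hippocampus. The OB value was 2.37-fold below the next lowest, and the other 3 lay within 1.23-fold of each other. Cdk1 and Tpx2 were the only members at least 2-fold below all other regions in the OB, where 1% of all genes were. For Tpx2 this rests on 1 of 2 probe sets. Plk1, the polo-like kinase of spindle assembly, read 197, 279, 146 and 322.5 in the same order of regions (SVZ, VM, OB, hippocampus), and its hippocampus and VM values lay within the probe set scatter of each other (1.15-fold).

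The Aurora kinases were near or under the floor in the OB. Aurka, which acts at the spindle poles, read 207.5 in the SVZ, 309 in the VM, 131 in the OB and 306 in the hippocampus. Aurkb, of the chromosomal passenger complex, read 161, 202, 102.5 and 269, with the OB under the floor. Both were lowest in the OB, and for Aurka the VM and hippocampus values were equal within 1.01-fold. Birc5 (survivin), the partner of Aurkb, read 399.6, 433, 203 and 533, low only in the OB, where it was 1.97-fold below the next culture.

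Cyclins of G2 and mitosis had the same region at each end. Ccnb2 (cyclin B2) read 337 in the SVZ, 479 in the VM, 225.0 in the OB and 559.5 in the hippocampus, a range of 2.49-fold. Ccna2 (cyclin A2), which works in S phase and G2, read 341, 365, 260.3 and 515, a range of 1.98-fold. In both the hippocampus was highest and the OB lowest, and for Ccna2 the OB lay within the scatter of the SVZ (1.31-fold). The second probe set of Ccna2 read 295.5, 370, 180 and 471. It had the same regions at each end but put the OB 1.64-fold below the SVZ, beyond the scatter.

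Proliferation and chromosome genes gave the hippocampus a lead of varied size. Mki67, whose Ki-67 protein coats mitotic chromosomes and marks cycling cells, read 361 in the SVZ, 358 in the VM, 278 in the OB and 747 in the hippocampus. The hippocampus was 2.07-fold above the next region, and the other 3 lay within 1.3-fold of each other. Mki67 and Cdc20 were the 2 members at least 2-fold above all other regions in the hippocampus, where 1.61% of all genes were. Cenpa, the histone H3 variant of centromeres, read 221, 240.3, 132.5 and 417, and Top2a, the topoisomerase that untangles sister chromatids, 742, 961, 475.5 and 1002. Cenpa thus had a hippocampal lead of 1.74-fold, and Top2a had none beyond the scatter over the VM (1.04-fold).

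Checkpoint genes were also ordered with the OB last. Bub1, a kinetochore checkpoint kinase, read 257 in the SVZ, 349 in the VM, 142 in the OB and 427 in the hippocampus, a range of 3.0-fold. Bub1b read 139.8, 189, 99.5 and 247, and Mad2l1, which restrains the anaphase-promoting complex, 498, 542, 266 and 608. For Mad2l1 the OB was 1.87-fold below the next lowest while the other 3 lay within 1.22-fold. Ube2c, the ubiquitin-conjugating enzyme of the anaphase-promoting complex, had its highest value in the VM: 806 in the SVZ, 1159 in the VM, 476 in the OB and 959 in the hippocampus.

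The probe sets of Cdc20, the activator of the anaphase-promoting complex, did not give 1 pattern. The brightest read 345 in the SVZ, 487 in the VM, 745 in the OB and 1652 in the hippocampus, which put the SVZ last and the hippocampus 2.22-fold above the OB. A further probe set read 525, 668, 404 and 686 in the same order, which put the OB last and the hippocampus level with the VM. The third was under the floor on all arrays. The 2-fold lead of Cdc20 in the hippocampus thus rests on 1 probe set, which carries the array's suffix for probes that can match other transcripts.

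Spindle genes included the exceptions. Tpx2, the spindle assembly factor that activates Aurka, read 469 in the SVZ, 395 in the VM, 157 in the OB and 457 in the hippocampus, with the OB 2.52-fold below the next. Its second probe set read 190, 90.4, 67.6 and 148, under the floor in both the VM and the OB. Nusap1, a microtubule-bundling protein, read 424, 304, 196 and 411, also last in the OB. Kif20a, a kinesin of the cleavage furrow, instead read 122.2, 306, 183 and 235, lowest in the SVZ and highest in the VM. Kif23, a kinesin of the central spindle in cytokinesis, read 185 in the SVZ, 146 in the VM, 61.7 in the OB and 149 in the hippocampus. Kif11, the kinesin that separates spindle poles, was above the floor in the hippocampus only (146, against 64.6 to 109.5).

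S phase genes were low in the OB too, and for them the SVZ and hippocampus medians were close. The median log2 distance of the 14 members from the other 3 regions was 0.39 in the SVZ, 0.00 in the VM, -0.71 in the OB and 0.33 in the hippocampus, against 0.00 over all genes. At least 2-fold above the OB were 5 of 14 in the SVZ, where 5.8% of all genes were, and 5 in the hippocampus, where 5.6% were. Without the OB array the SVZ median was 0.06 and that of the hippocampus 0.17, and without the hippocampus array the SVZ median was 0.60.

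Deoxynucleotide synthesis held the member with the widest S phase range. Rrm2, the S phase subunit of ribonucleotide reductase, read 2893 in the SVZ, 1875 in the VM, 645 in the OB and 1148 in the hippocampus. The SVZ was 4.49-fold above the OB and 2.52-fold above the hippocampus, and no neighbours in the order were within the scatter. Both further probe sets of Rrm2 gave the same order of all 4 regions (915.7, 622, 222 and 468 in the first; 1701, 1064, 365 and 667 in the other). Rrm1, the large subunit, differed less, at 706.5, 913, 535 and 847. Tk1, thymidine kinase, read 255.5 in the SVZ and 271 in the hippocampus, against 150.4 in the VM and 116 in the OB, so that the SVZ and hippocampus were at least 2.09-fold and at least 2.22-fold above the OB. Of Tyms, thymidylate synthase, single-gene probe sets stayed under the floor; a probe set shared with its pseudogene was left out by the rule.

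The replicative helicase genes Mcm2 to Mcm7 did not share 1 pattern. Mcm3 read 456 in the SVZ, 337.5 in the VM, 186 in the OB and 530.1 in the hippocampus. Mcm5 read 332, 243, 161 and 375, and Mcm6 751, 896, 536 and 1256. These 3 were lowest in the OB and highest in the hippocampus, by 2.85-fold, 2.33-fold and 2.34-fold from lowest to highest. Mcm7 read 1868, 1555, 917 and 1545, highest in the SVZ. Mcm4 read 548.5, 474, 593 and 725, and was lowest in the VM rather than the OB; its second probe set read 398, 376, 266 and 405 and did put the OB last.

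Mcm2 was low in the hippocampus by 1 of its probe sets. The brighter read 554 in the SVZ, 442 in the VM, 327 in the OB and 199 in the hippocampus, and the other read 372, 287.5, 203 and 329.7. The low hippocampal value of Mcm2 therefore rests on the first. Pcna, the sliding clamp of DNA polymerase, read 4025, 2485, 2484.5 and 3802, splitting the cultures into a higher pair (SVZ and hippocampus) and a lower pair 1.53-fold or more below. Gmnn (geminin), which blocks relicensing of origins, read 248, 189, 124 and 316, in the order of Mcm3 and Mcm5.

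The order of the cultures differed between S phase and mitotic genes when the SVZ and the VM were set side by side. Of the S phase genes 9 of 14 were higher in the SVZ and 2 in the VM; of the mitotic genes 5 of 22 were higher in the SVZ and 14 in the VM. Over all genes 31.3% were higher in the SVZ and 27.8% in the VM. The differences were small: the median was 0.30 for S phase and -0.12 for mitotic genes (log2, SVZ minus VM). Beyond the probe set scatter were 4 S phase genes in favour of the SVZ and none in favour of the VM, against 1 and 6 mitotic genes, where all genes gave 10.8% and 9.28%. Of the 41 members only Ccnd1 (in the SVZ) and Kif20a (in the VM) were 2-fold apart, where 3.51% and 3.2% of all genes were. For Kif20a the SVZ value was at the floor.

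**Figure D3:**
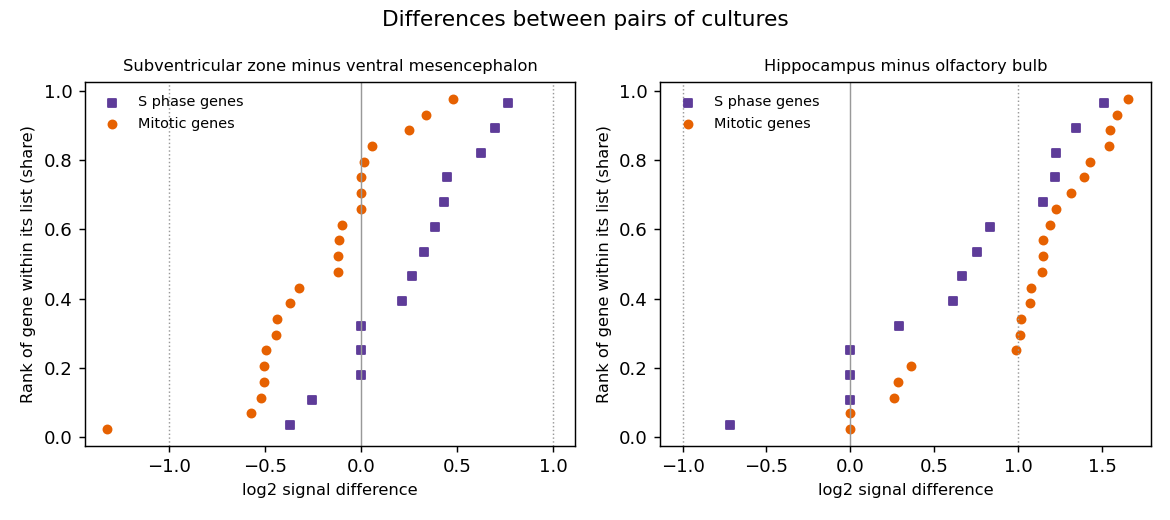
Log2 signal difference of each S phase gene (squares) and mitotic gene (circles), sorted within its list, for the SVZ minus the VM (left) and the hippocampus minus the OB (right); dotted lines mark 2-fold. On the left the S phase median is 0.30 and the mitotic median -0.12; on the right 16 of 22 mitotic and 5 of 14 S phase genes lie at 2-fold or more.

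Within a culture, the mitotic median minus the S phase median was -0.49 in the SVZ, 0.26 in the VM, -0.16 in the OB and 0.31 in the hippocampus. The VM value was 0.09 without the OB array and 0.48 without that of the hippocampus. The hippocampus value was 0.11 without the OB array and 0.54 without that of the VM, and the OB value was -0.27 without the SVZ array. Between the hippocampus and the SVZ, 17 of 22 mitotic genes were higher in the hippocampus and 3 in the SVZ, with 11 and 0 beyond the scatter; of all genes 32.2% and 29.3% were higher by any amount and 13.1% and 10% beyond the scatter. Of the S phase genes 7 were higher in the hippocampus and 4 in the SVZ. The VM had 16 of 22 mitotic genes above the OB beyond the scatter (11% of all genes), 9 of them 2-fold or more (4.16% of all genes), and 1 S phase gene, Rrm2, 2-fold or more.

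Over the OB, 9 of the 41 members were 2-fold or more higher in the SVZ (5.8% of all genes) and 11 in the VM (4.16%). Apart from these and the hippocampus over the OB, each comparison of 2 regions held 4 members or fewer. The SVZ exceeded the hippocampus in 4 (Ccnd1, Ccnd2, Mcm2 and Rrm2), where 3.19% of all genes did, and the hippocampus exceeded the SVZ in Mki67 and Cdc20 (4.21% of all genes). The same 2 genes were higher in the hippocampus than in the VM (6.08%), and Mcm2 was higher in the VM than in the hippocampus (4.37%). The OB exceeded the SVZ in Ccnd3 and Cdc20 (5.41%), the hippocampus in Ccnd3 (3.37%), and the VM in 0 members (3.57%). The 2-fold differences of Mcm2 and Cdc20 each rest on 1 probe set, as given above. A further probe set reversed the order of VM and hippocampus for Mcm2, and of OB and SVZ for Cdc20. Against all other regions at once, no member was 2-fold lower in the SVZ (0.654% of all genes), the VM (0.363%) or the hippocampus (0.315%). None was 2-fold higher in the VM (1.01%) or the OB (1.2%). At shares this small, these absences say little about the members.

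The D-type cyclins, which receive growth factor signals in G1, each had their own order of regions. Ccnd1 read 10374 in the SVZ, 4340.5 in the VM, 2169 in the OB and 2698 in the hippocampus. It was 2.39-fold above the next region in the SVZ, where 0.823% of all genes were at least 2-fold above all others, and its OB and hippocampus values lay within the scatter (1.24-fold). Its order of regions was that of Rrm2. The other probe sets of Ccnd1 read 8253, 3780.3, 1570.2 and 2420, and 5507, 2162, 1251 and 1139, so that all 3 gave the SVZ the highest value and the VM the next, and 1 put the hippocampus rather than the OB last.

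Ccnd2 and Ccnd3 had other orders. Ccnd2 read 10897 in the SVZ, 8337 in the VM, 8961 in the OB and 4922 in the hippocampus, and was lowest in the hippocampus by 1.69-fold. Of its 7 probe sets 6 were lowest in the hippocampus, but 4 were highest in the OB rather than the SVZ. The brightest of these 4 read 6209, 3989, 8366 and 4131, lowest in the VM. Ccnd3 read 1229, 1474, 2464 and 1132, highest in the OB by 1.67-fold. By the brightest probe set of each gene it was the only member with its highest signal there. Ccne1 (cyclin E1), which with Cdk2 starts S phase, was near the floor at 177, 154, 113 and 116.

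Other genes of the pathway were read from further lists. Of 28 named replication genes outside the members, 17 were lowest in the OB (14.3% of all genes) and none highest there (18.5%); medians by region were 0.25 in the SVZ, -0.08 in the VM, -0.57 in the OB and 0.39 in the hippocampus. Dbf4, the activator of the Cdc7 kinase, read 421, 479, 125 and 464, and Lig1, DNA ligase of the lagging strand, 466, 437, 213 and 494; both were at least 2-fold below all other regions in the OB, where 1% of all genes were. Dut, which removes dUTP, was 847 in the VM against 189.7 to 243 elsewhere, the only gene of the list 2-fold above all other regions there (1.01% of all genes). Of 36 further mitotic genes 27 were lowest in the OB (14.3% of all genes) and 21 highest in the hippocampus (18.1%), with medians of -0.02, 0.14, -0.73 and 0.46.

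Of these 36 genes, 2 were at least 2-fold above all other regions in the hippocampus (1.61% of all genes) and 3 at least 2-fold below them in the OB (1%). Plk4, the kinase of centriole duplication, read 234 in the SVZ, 241 in the VM, 177 in the OB and 889 in the hippocampus, 3.69-fold above the next. Smc4, of the condensin complex, read 548, 576, 547 and 1258, 2.18-fold above the next in the hippocampus. Its further probe sets were also highest in the hippocampus but by less, at 550.7 against 356 in the next region and 209 against 126, so that the 2-fold call of Smc4 rests on 1 of 3 probe sets. Those lower in the OB were Spc25 of the kinetochore (249, against 566 to 637), Pttg1 or securin (458.5, against 1075 to 1808) and the spindle protein Ckap2 (214, against 578 to 1477).

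G1 kinases and E2F factors had medians between -0.04 and 0.00 over the 12 named genes. None of the 12 was 2-fold above or below all other regions, a count that says little, since by region and direction only 0.315% to 1.61% of all genes were. Cdk4, the kinase partner of the D-type cyclins, read 1248 in the SVZ, 1252 in the VM, 1820.0 in the OB and 1192 in the hippocampus. Myc read 1069, 1745, 380.5 and 382, the only one of the 12 that was 2-fold apart in any pair, and it split the cultures into the SVZ and VM above and the OB and hippocampus below.

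Arrest genes included 3 that were lowest in the hippocampus by 2-fold or more. Cdkn1a, the p53 target p21, read 4942 in the SVZ, 7465 in the VM, 5917 in the OB and 2148 in the hippocampus. The hippocampus was 2.3-fold below the next lowest, and the second probe set was lowest there too (825, 1799.5, 1940.3 and 438). Ccng1 (cyclin G1), another p53 target, read 7196, 9047, 7369 and 2946, 2.44-fold below the next in the hippocampus. Gadd45b, a stress gene, read 3275, 1729, 684 and 317, also lowest there, 2.15-fold below the next; a further probe set read 2208, 1415, 582 and 404, lowest there too but by less than 2-fold, and another was under the floor in the OB and hippocampus. These 3 of 16 arrest genes were the ones called lower in the hippocampus, where 0.315% of all genes were.

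Other arrest genes had other patterns. Cdkn2a, the locus of p16 and Arf, was above the floor in the VM (162) and OB (208) and below it in the SVZ (79.4) and hippocampus (38.5). Btg2, an antiproliferative p53 target, read 418, 632.5, 2440 and 506, 3.86-fold above the next in the OB, but its second probe set read 735, 927, 967 and 313 with no such lead. Gadd45a read 2174 in the SVZ, 2138 in the VM, 229.7 in the OB and 409.7 in the hippocampus. Cdkn1b, or p27, at 1121, 644, 676.5 and 1200.2, was higher in the SVZ and hippocampus. Cdkn2b (p15) read 2273, 1870.3, 1133 and 1071, higher in the SVZ and VM than in the other two. As a list the 16 had medians between -0.15 and 0.17.

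**Figure D4:**
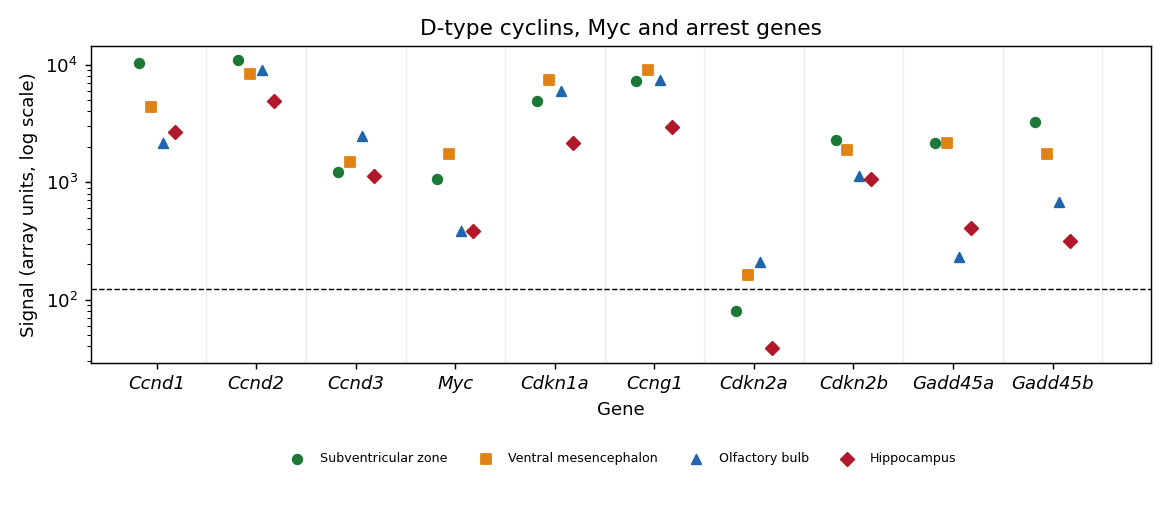
Deposited signal of the D-type cyclins, Myc and 6 arrest genes in the 4 cultures, on a log axis in array units, 1 point per array; the dashed line is the floor of 122.1. Cdkn1a and Ccng1 are lowest in the hippocampus, Ccnd1 is highest in the SVZ, and Gadd45a and Myc are lower in the OB and hippocampus.

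The cultures also differed in markers of the cells they hold. The label of astrocytes was met by Gfap (1007 to 10027), Aldh1l1 (311 to 5106) and 11 of 12 astrocyte markers above the floor on at least 1 array, but not by Slc1a2, at 1.5 to 82.9. The astrocyte list differed between regions, with medians of -0.06 in the SVZ, -0.61 in the VM, 0.13 in the OB and 0.61 in the hippocampus and summed signals of 24997, 15059, 24176 and 36420.3. Gfap and Aldoc were at least 2-fold below all other regions in the VM (1007 and 564), as was Aldh1l1 in the OB (311). All 17 microglia markers were above the floor in the hippocampus and 16 in the OB, with summed signals of 43806 and 38228, against 3 and 1 markers and sums of 1251 and 759 in the SVZ and VM, where C1qa read 1.5 in both. Fibroblast and meningeal markers summed to 65509 in the OB, 43290 in the VM, 24039 in the hippocampus and 6457 in the SVZ, with 14, 14, 13 and 8 of 14 above the floor.

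Neural progenitor markers summed to 42882 in the SVZ, 24293 in the VM, 17200 in the OB and 29911 in the hippocampus. Of 11 named, 8, 8, 5 and 7 were above the floor, and Hes5 and Dlx1 were under it on all arrays. Among them Sox2 read 2512, 968, 348 and 2854 and Nes 1219, 429, 274 and 995, both lowest in the OB. Oligodendrocyte lineage markers were above the floor in 3, 2, 4 and 5 of 8, neuronal in 3, 1, 2 and 3 of 10, and endothelial in 0, 1, 0 and 0 of 7, in the same order of regions. Choroid and ependymal markers were above the floor in 1, 2, 1 and 4 of 5 and summed to 998, 514, 1129 and 12880. Ttr (8960 against at most 88.1), Foxj1 (1909.5 against at most 919) and Folr1 (550.3 against at most 58.7) were at least 2-fold above all other regions in the hippocampus, the culture with the highest mitotic values. The part of these cell types in the cell cycle values was not tested.

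The arrays were alike in total signal by their scaling, with 2% trimmed means of 400.1 to 400.2. The hippocampus array had more probe sets above the floor (11835, against 11144 to 11207) and a lower 99th percentile of signal (5619, against 6863 to 7377). The 18 hybridisation control probe sets had a median of 1384 in the SVZ, 1265 in the VM, 982 in the OB and 807 in the hippocampus. With quantile normalization, which gives all arrays 1 distribution, the mitotic medians were -0.06 in the SVZ, 0.29 in the VM, -0.82 in the OB and 0.54 in the hippocampus. Where members had further probe sets above the floor (23 probe sets of 13 genes), 18 put the lowest signal in the same region as the brightest probe set, and 16 put it in the OB.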

How the data were processed

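RNA of 4 primary astrocyte cultures was labelled from 2 ug of total RNA and hybridised to 1 Affymetrix array each. The deposited values are intensities on a linear scale, made by the authors with GCOS 1.4, per the submitters' processing notes; which algorithm it ran is not given in the sources used here. They were used as deposited. No detection calls were used. The floor was the median of all signals, 122.1, so folds over a floored signal are written as at least that size.

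Names came from GEO's platform annotation: of 22690 probe sets, 20380 had 1 symbol, 691 had several, 1555 had none listed and 64 were controls; 20351 of the 20380 matched RefSeq by gene identifier. The brightest probe set stood for a gene. Groups came from the labelled brain region. With 1 array per region, called means at least 2-fold (log2 difference of 1), and the number of arrays limits the precision. Genes named are all members, the called genes of the further pathway lists, Cdkn1a, Cdkn2a and Cdk4, and markers by brightness; Cdkn1b, Cdkn2b, Gadd45a, Myc and the markers named singly were added after their values were seen. The members and lists were chosen with earlier results of these data known. The summaries were tested on simulated data and computed with Python 3.11.15, numpy 2.4.6 and pandas 2.3.3. Promoter sequences came from a RefSeq table (GRCm38.p6) with an entry for 32 of the 42 members. Alternatives in floor, probe set, normalization and list membership were tried.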

Additional observations from a re-analysis of the deposited data

How the results depend on the processing

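The OB had the lowest S phase and mitotic medians under every alternative run that kept its array. Raising the floor to the 70th percentile of all signals gave other values: the S phase medians were 0.00 in the SVZ, -0.16 in the OB and 0.028 in the hippocampus, the mitotic ones 0.00 in the VM, -0.076 in the OB and 0.19 in the hippocampus, and the mitotic minus S phase difference 0.00 in the SVZ, 0.00 in the VM and 0.082 in the OB. The counts of 2-fold members were then 6 for the hippocampus over the OB, 5 for the VM and 4 for the SVZ over it, and 0 for the VM over the SVZ or the hippocampus; the OB was lowest in 12 and called lower in 1, the SVZ lowest in 1, and the VM highest in 2. With the mean over probe sets, the OB mitotic median was -0.67, the difference between lists in the SVZ -0.28, and the VM was lowest in 0 members and 2-fold above the hippocampus in 0. The OB was then called lower in 1 and 2-fold above the hippocampus in 2. With the mean over probe sets, with quantile normalization, or without probe sets of the s and x suffix (an alternative chosen after seeing the data, as was the count by lowest region), 1 member each was 2-fold higher in the OB than in the SVZ, in the hippocampus than in the SVZ and in the hippocampus than in the VM, and 1 was called in the hippocampus. Without those probe sets the SVZ was lowest in 1 member and the VM 2-fold above the hippocampus in 0. Shares of all genes were not computed under these alternatives, so the changed counts cannot be set against them. The cause of these changes was not tested.

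Leaving out 1 array at a time, the S phase medians ran from 0.063 to 0.60 in the SVZ, -0.12 to 0.06 in the VM, -0.76 to -0.61 in the OB and 0.17 to 0.41 in the hippocampus. The mitotic ones ran from -0.40 to 0.13, -0.034 to 0.54, -0.99 to -0.74 and 0.28 to 0.84 in the same order; that of the VM was -0.034 once the OB was left out. The mitotic minus S phase difference ran from -0.47 to -0.36, 0.087 to 0.48, -0.27 to -0.12 and 0.11 to 0.54. Of the 312 values recomputed for lists and counts, 263 stayed the same. A list value did so within 0.19 on the log2 scale, the SD per probe set of a distance from the other regions. A count did so within 1.5 times. Of the rest, 48 moved and 1 was reversed, the mitotic median of the VM without the OB array. No paired analysis was possible because each region has 1 array. Signals near the floor limit what can be read of Cdc6, Cdc45, Tyms, Ccne2, Cenpe and Foxm1, and of Kif20a in the SVZ.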
